A study of Mus musculus with 8 samples.

Results

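Lag3, Havcr2 and Tox are 3 of the 100 genes on a single-molecule RNA panel that was imaged in GL261 glioma-bearing mouse brain. They were taken by name as genes of T cell exhaustion, and all 3 were found in each of the 8 sections. The question asked of them was whether their molecules lie with T cells or with brain and myeloid tissue, and how their levels differ between treatments. Across the sections Havcr2 ranked 34 to 46 among the 100 genes by molecule count, Lag3 37 to 62 and Tox 65 to 94.

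Lag3 encodes an inhibitory receptor of activated T cells that binds MHC class II, and Havcr2 encodes TIM-3, an inhibitory receptor of T cells that is also made by macrophages, dendritic cells and microglia. Tox encodes a nuclear factor that sets up and maintains the exhausted state of CD8 T cells, and it is also used in the thymus and in the developing brain. Lag3 transcripts have been described in microglia and neurons as well, so that none of these genes marks a T cell by itself in brain tissue.

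All mice carried tumours of GL261, an established mouse glioma cell line, implanted in the brain, and all received 4 intracranial treatments and were killed on day 21. The 4 groups received PBS, anti-PD1 (an antibody against the checkpoint receptor that Pdcd1 encodes), CpG-STAT3ASO (a STAT3 antisense oligonucleotide joined to a CpG oligonucleotide, the ligand of TLR9), or CpG-STAT3ASO with anti-PD1, called the combination below. Each group had 2 sections. The labels do not say whether these came from different mice, nor give the mouse strain, age or sex, so p-values measure the spread between sections, which may be technical.

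A section held 1669939 to 6995401 called molecules, of which 0.106 to 0.306% carried 1 of 28 names beginning with FP, read here as false-positive codes. Square bins of 360 pixels with at least 20 molecules counted as tissue, 2155 to 2405 per section. They were called dense with 100 or more molecules of the proliferation genes Mki67 and Birc5, intermediate with 10 to 99 and low-proliferation with fewer than 10. Dense bins made up 32.2 to 46.2% of the tissue bins in the 4 sections without CpG-STAT3ASO and 0.983 to 3.24% in the 4 sections with it. Of the marker lists for neurons, oligodendrocytes and astrocytes no gene is on the panel, so these cells could not be checked. Summed macrophage markers (6 of 7 measured) were 4669 to 9852 molecules per 1000000 gene molecules (CPM) without CpG-STAT3ASO and 20165 to 37526 with it, and the summed T cell markers Cd3d and Cd8a (2 of 6 measured) were 289 to 692 and 746 to 4852. Stat3, the target that the oligonucleotide names, stood at 55402 to 68368 CPM without it and 29714 to 42709 with it, which did not overlap, but the log2 difference of -0.72 did not pass (SE 0.424, limma adjusted p = 0.189). As a share, 10% of genes were lower in every section with CpG-STAT3ASO than in every other. The Stat3 difference passed per tissue bin (-2.14, limma adjusted p = 0.00513), where 31% of genes were called and 29% were lower. With median-of-ratios size factors the Stat3 difference passed too (-1.41, limma adjusted p = 0.0283), where 34% were called and 16% were lower. In low-proliferation bins the Stat3 difference was -0.22 as a share (limma adjusted p = 0.647) and 0.08 per bin (adjusted p = 0.868).

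Per section, Havcr2 was the most abundant of the 3 genes and Tox the scarcest. Havcr2 counted 5953 and 6025 molecules in the PBS sections, 10486 and 7717 after anti-PD1, 6479 and 7056 after CpG-STAT3ASO and 7642 and 13669 after the combination. For Lag3 these counts were 5045 and 5245, 3162 and 3764, 3050 and 4453, and 5346 and 7766. Those of Tox were 549 and 446, 222 and 657, 821 and 947, and 628 and 664. Counts of different genes depend on the efficiency of their probes, which is not known, so no order of expression is read from them. Against the codes named FP, Lag3 and Havcr2 exceeded the 90th percentile of the codes in 8 of 8 sections. Tox exceeded it in 6 of 8, not in PBS replicate 2 and anti-PD1 replicate 1. The most frequent code, FP 13, stood far above the other codes, with 3316 to 5348 molecules per section. Havcr2 exceeded FP 13 in 8 sections, Lag3 in 5 and Tox in 0. In low-proliferation bins Havcr2 exceeded it only in the 4 sections with CpG-STAT3ASO, with 1358, 1583, 1499 and 1489 molecules against 2329, 2481, 2610 and 2174 of FP 13 in the others, and Lag3 in 5 sections.

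The molecules of Lag3 and Havcr2 were spread widely, and those of Tox were sparse. A Lag3 molecule was present in 55.6 to 85.8% of tissue bins, Havcr2 in 63.8 to 90.6% and Tox in 8 to 23.7%. The 5% of bins with the most Tox molecules held 45.6 to 70.3% of them, against 17.1 to 25.8% for Lag3 and 18.5 to 26.5% for Havcr2. The fullest bin of a section held 4 to 11 molecules of Tox, 13 to 23 of Lag3 and 23 to 63 of Havcr2.

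As a share of all gene molecules in a section, all 3 genes rose with CpG-STAT3ASO. The percentage of called molecules with FP codes tended to be higher too, at 0.106 to 0.152% without it and 0.126 to 0.306% with it. Code FP 13 counted 3891 to 5348 molecules per section without it and 3316 to 4420 with it. The part of such background in the rise of the members was not tested. Lag3 stood at 1204 and 751 CPM in the PBS sections, 476 and 592 after anti-PD1, 1832 and 1835 after CpG-STAT3ASO and 3209.9 and 1979.6 after the combination. Every section with the oligonucleotide was above every section without it. The average effect of CpG-STAT3ASO over both anti-PD1 settings was a log2 difference of 1.60 (SE 0.384), a 3.02-fold higher share, with an adjusted p of 0.00303 by limma over the 100 genes.

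Havcr2 stood at 1421 and 862 CPM in the PBS sections, 1578 and 1213 after anti-PD1, 3892 and 2908 after CpG-STAT3ASO and 4589 and 3484 after the combination, again without overlap. Its share was 2.96-fold higher (log2 difference 1.57, SE 0.35, limma adjusted p = 0.00189). Tox stood at 131 and 63.8, 33.4 and 103, 493 and 390.3, and 377 and 169 CPM in the same order, also without overlap, and was 4.49-fold higher (log2 2.17, SE 0.569, limma adjusted p = 0.00505). For Tox the fold starts from the level of the FP codes in 2 of the 4 sections without the oligonucleotide. Of all 100 genes 43% were called for this effect (35% higher), and 28% had every section with CpG-STAT3ASO above every other, so the members belong to a frequent pattern. The calls of all 3 were kept without any 1 section.

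The median gene rose too by this measure, by 0.63 on the log2 scale, and the members stood 0.97 (Lag3), 0.94 (Havcr2) and 1.54 (Tox) above it. Counted as molecules per tissue bin, the sections with CpG-STAT3ASO held 1.30 to 3.23 Lag3 molecules and the others 1.42 to 2.43. Havcr2 had 2.77 to 5.68 against 2.68 to 4.71 per bin, and Tox 0.276 to 0.430 against 0.0998 to 0.279, so that all 3 ranges overlapped. The log2 differences per tissue bin were 0.18 for Lag3, 0.15 for Havcr2 and 0.76 for Tox (limma adjusted p 0.654, 0.692 and 0.256), where 31% of genes were called and 29% were lower. The median gene fell by 0.77 on that scale, and the members stood 0.96, 0.93 and 1.54 above it. With median-of-ratios size factors, which put the median gene at -0.04, the effects were 0.91 (adjusted p = 0.0626), 0.88 (0.0482) and 1.49 (0.0434), with 34% of genes called. The rise in share went with the loss of dense bins, and the share of it that this loss accounts for was not tested. Fewer cells of a type and less RNA per cell cannot be told apart in any of these values.

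Between single groups the call depended on the gene. Against PBS, CpG-STAT3ASO alone gave log2 differences of 1.60 for Havcr2 (SE 0.495, limma adjusted p = 0.0238) and 2.25 for Tox (SE 0.804, adjusted p = 0.0490), and 0.95 for Lag3, which did not pass (adjusted p = 0.206), where 25% of genes were called. The combination against PBS gave 1.85 for Havcr2 (adjusted p = 0.0176), 1.41 for Lag3 (0.0729) and 1.46 for Tox (0.204), with 18% called. The combination against anti-PD1, a comparison that shares its first group with the one before, gave 2.25 for Lag3 (0.00741), 1.53 for Havcr2 (0.0344) and 2.08 for Tox (0.0599), with 28% called. Of these 5 calls none was kept in all 8 fits that leave out 1 section. The Lag3 call was lost without combination replicate 1 (adjusted p = 0.061). The Havcr2 calls were kept in 5, 6 and 3 of the 8 fits, and both calls against PBS were lost without PBS replicate 2 (0.323 and 0.233). The Tox call was kept in 2, without either combination section. With no more than 2 sections a group, each of these rests on single sections. None of the 5 calls was kept per tissue bin or with median-of-ratios size factors (adjusted p 0.0540 to 0.224 with the latter).

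No effect of anti-PD1 was detected on any of the 3 genes. Its average effect on the share was -0.19 for Lag3, 0.29 for Havcr2 and -0.71 for Tox on the log2 scale (limma adjusted p 0.998 each). Of 100 genes limma called 0% for this effect, 1 gene at an unadjusted p under 0.05, and limma's voom called 0, 2 genes unadjusted. Anti-PD1 against PBS gave -0.84, 0.32 and -0.63, and the combination against CpG-STAT3ASO gave 0.46, 0.25 and -0.79, with no member called. The interaction of the agents was 1.30 for Lag3, -0.07 for Havcr2 and -0.17 for Tox (limma adjusted p 0.955 each, 0% of genes called). With 2 sections per group only large interactions could be detected.

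Within low-proliferation bins no rise of Lag3 or Tox was detected. Lag3 stood there at 3529 and 4923 CPM in the PBS sections, 1622 and 2594 after anti-PD1, 1959 and 2074 after CpG-STAT3ASO and 3626 and 2267 after the combination. The PBS sections and combination replicate 1 were the highest. Tox stood at 556 and 563, 205 and 802, 625 and 581, and 447 and 203 CPM, with the highest and nearly the lowest section both in the anti-PD1 group. The average effects of CpG-STAT3ASO were -0.28 for Lag3 (SE 0.321, limma adjusted p = 0.647) and -0.16 for Tox (SE 0.486, adjusted p = 0.850). Leaving out anti-PD1 replicate 2 or combination replicate 2 turned the Tox value to 0.33 and 0.12. The Lag3 average pools effects of opposite sign. In the fit with the replicate number as a block, CpG-STAT3ASO against PBS gave -1.05 and the combination against anti-PD1 0.48. The Lag3 interaction in that fit was 1.53 (SE 0.698), and none of these passed (limma adjusted p 0.591, 0.578 and 0.917).

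Havcr2 stood at 1818 and 2136 CPM in low-proliferation bins of the PBS sections, 1748 and 2137 after anti-PD1, 3457 and 2345 after CpG-STAT3ASO and 4043 and 2685 after the combination. All sections with the oligonucleotide were above all others, as for 19.4% of genes. The effect of 0.65 (SE 0.308) did not pass (limma adjusted p = 0.217). For this average effect none of the 3 members was called there at an adjusted or unadjusted p under 0.05 by limma or by voom. Limma called 9.18% of genes for it, and the median gene was 0.41 higher. For CpG-STAT3ASO against PBS, anti-PD1 against PBS and the interaction, 1 of 3 members had an unadjusted p under 0.05 there, by limma and by voom. By limma so did 8, 3 and 5 of 98 genes, and 0 passed after adjustment. Counted per low-proliferation bin, Havcr2 went from 1.36 ± 0.202 molecules (SD, n = 4) without to 2.67 ± 0.615 (SD, n = 4) with CpG-STAT3ASO, with ranges of 1.16 to 1.63 and 2.15 to 3.45. That difference of 0.96 on the log2 scale passed (SE 0.204, limma adjusted p = 0.0229), against a median gene at 0.72. On that scale 16.3% of genes were called, and 27.6% had all 4 sections with the oligonucleotide above the others. The same bins held 637 to 764 gene molecules per bin without the oligonucleotide and 635 to 1284 with it. As a share, not per bin, 2 of 6 macrophage markers were higher with it in low-proliferation bins and 4 did not pass. The part of these in the Havcr2 value was not tested.

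In intermediate bins, Havcr2 stood at 1473 to 3311 CPM without CpG-STAT3ASO and 3775 to 6525 with it, which did not overlap, as for 14.7% of genes. The effect of 1.07 (SE 0.325) had a limma adjusted p of 0.0923, with 4.21% of genes called. Those of Lag3 (0.52, adjusted p = 0.343) and Tox (1.19, adjusted p = 0.264) did not pass either.

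**Figure D1:**
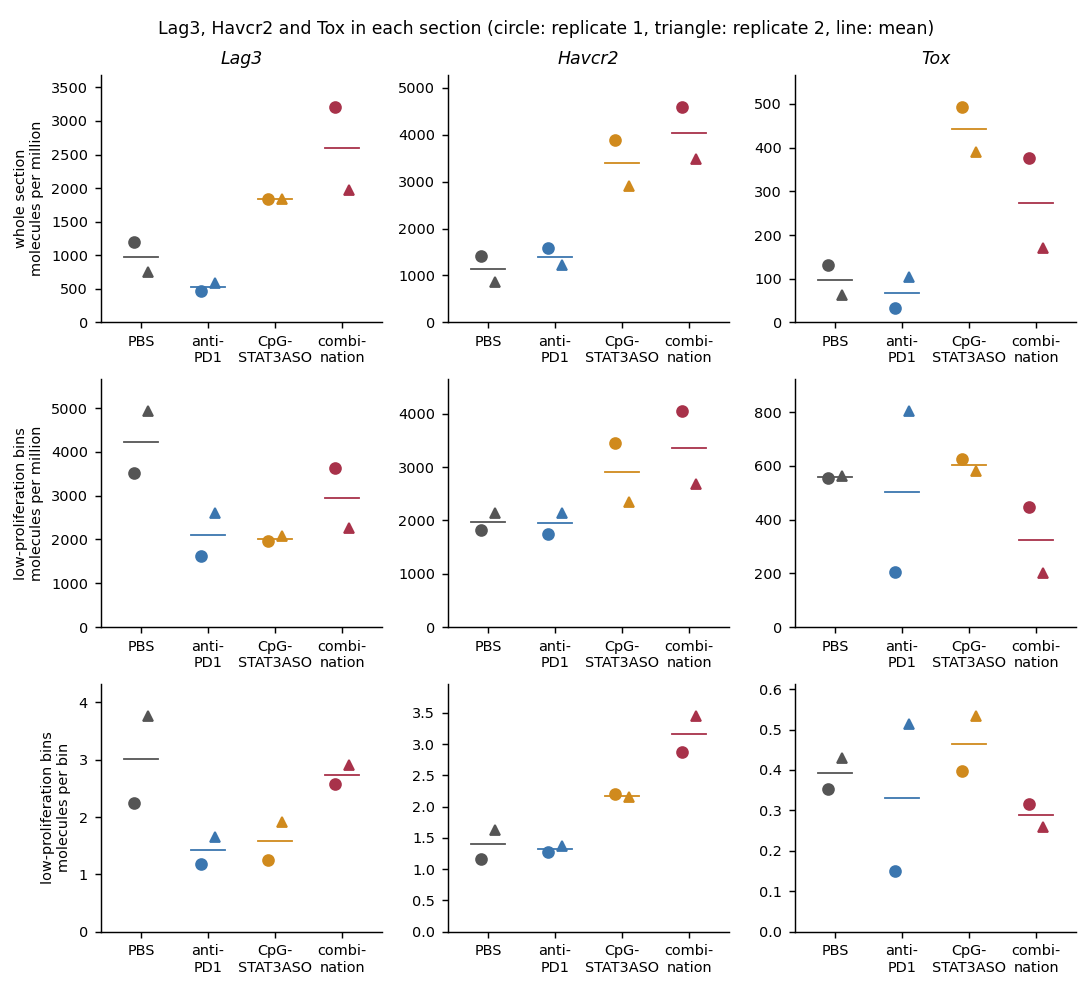
Molecules per 1000000 gene molecules in whole sections (top) and in low-proliferation bins (middle), and molecules per low-proliferation bin (bottom), for each section of the 4 groups; circles are replicate 1, triangles replicate 2 and lines the mean of both. The whole-section share of each gene is higher in all 4 sections with CpG-STAT3ASO, and in the lower rows that holds for Havcr2 but not for Lag3 or Tox.

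The 3 genes differed in where they lay in the tumour-bearing sections. In the 4 sections without CpG-STAT3ASO, dense bins held 66.5 and 66.4% of the Havcr2 molecules of the PBS sections and 75.1 and 75.6% of those after anti-PD1. For Lag3 the percentages were 37.6, 23.6, 45.7 and 47.2, and for Tox 16.6, 3.59, 15.3 and 12.3. Low-proliferation bins held 75.6 to 93.5% of Tox, 44.0 to 69.6% of Lag3 and 14.3 to 26.3% of Havcr2. The ranges of the 3 genes did not overlap in either class.

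As a share of molecules, Lag3 was 9.03-fold lower in dense than in low-proliferation bins. It stood at 609, 208, 265 and 323 CPM in dense bins against 3529, 4923, 1622 and 2594 CPM in low-proliferation bins of the same sections (log2 difference -3.17, SE 0.385, limma with section as block, adjusted p = 0.000596). Tox stood at 29.2, 2.69, 6.24 and 14.7 CPM in dense bins against 556, 563, 205 and 802 (log2 difference -5.49, SE 0.538, adjusted p = 0.000252). In dense bins, with 16 to 91 molecules per section, Tox stayed under the 90th percentile of the FP codes in each of these 4 sections, so its dense-bin level is not above the background of the assay. In low-proliferation bins it exceeded that percentile in 8 of 8 sections but not code FP 13 in any. FP 13 itself counted 1202, 1421, 905 and 2912 molecules in dense bins and 2329, 2481, 2610 and 2174 in low-proliferation bins. Lag3 counted 1897, 1239, 1446 and 1778 against 2636, 3649, 1391 and 1807. Dense bins held far more gene molecules, so the share of FP 13 was lower there too in each section. Whether the Lag3 difference exceeds that of the code was not tested.

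Havcr2 stood at 1269, 673, 1444 and 1060 CPM in dense bins against 1818, 2136, 1748 and 2137 CPM in low-proliferation bins. This difference of -0.87 (SE 0.290) passed narrowly (limma adjusted p = 0.0414), and the call was lost when any 1 of the 4 sections was left out (adjusted p 0.0533 to 0.152). The median gene was at 0.17, and 56.1% of genes were called, 27.6% lower. A dense bin held 4366 to 6590 gene molecules and a low-proliferation bin of the same sections 637 to 764, and the scale decides the direction for Havcr2: per bin it was higher in dense bins by 2.12 on the log2 scale (limma adjusted p = 0.000163), at 5.54, 4.14, 9.52 and 5.35 molecules against 1.16, 1.63, 1.27 and 1.37. Lag3 did not differ detectably per bin, at 2.66, 1.28, 1.75 and 1.63 molecules in dense bins against 2.25, 3.76, 1.18 and 1.66 (log2 -0.19, adjusted p = 0.625). Tox was lower on that scale too, by -2.62 (adjusted p = 0.00134). On the scale per bin 95.9% of genes were called, 88.8% higher in dense bins and 7.14% lower, so Havcr2 went with most genes, and Lag3 and Tox did not.

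Counted per bin, Havcr2 fell off outwards from the dense edge and Tox rose, while as a share all 3 genes were higher outside the edge than inside it. Bins at least 4 bins inside the edge (core) held 6.93 ± 2.09 Havcr2 molecules (SD, n = 4), bins nearer the edge on its inside 6.06 ± 2.46, bins up to 4 outside it 2.33 ± 1.06, bins at 4 to 10 outside it 1.52 ± 0.298 and farther bins 1.12 ± 0.324. For Tox these means were 0.0517 ± 0.0439, 0.0665 ± 0.0485, 0.116 ± 0.108, 0.275 ± 0.212 and 0.475 ± 0.22 (SD, n = 4). Lag3 had no such gradient per bin, at 1.81 ± 0.517, 1.84 ± 0.594, 1.5 ± 0.345, 2.64 ± 1.41 and 2.01 ± 1.24. Its spread outside the edge came from the PBS sections, with 2.94 and 4.49 molecules at 4 to 10 bins from the edge, against 1.34 and 1.79 after anti-PD1. As shares, the means from the core outwards were 288, 364, 1587, 3563 and 2926 CPM for Lag3, 1086, 1126, 2313, 2073 and 1664 CPM for Havcr2, and 8.65, 14.0, 139, 402 and 715 CPM for Tox. So the course of Havcr2 turns with the scale, and that of Lag3 appears only as a share; these zones were not tested. In low-proliferation bins as a whole, anti-PD1 against PBS gave a log2 difference of -1.02 for Lag3 and CpG-STAT3ASO against PBS one of -1.05, and neither passed (limma adjusted p 0.886 and 0.507).

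**Figure D2:**
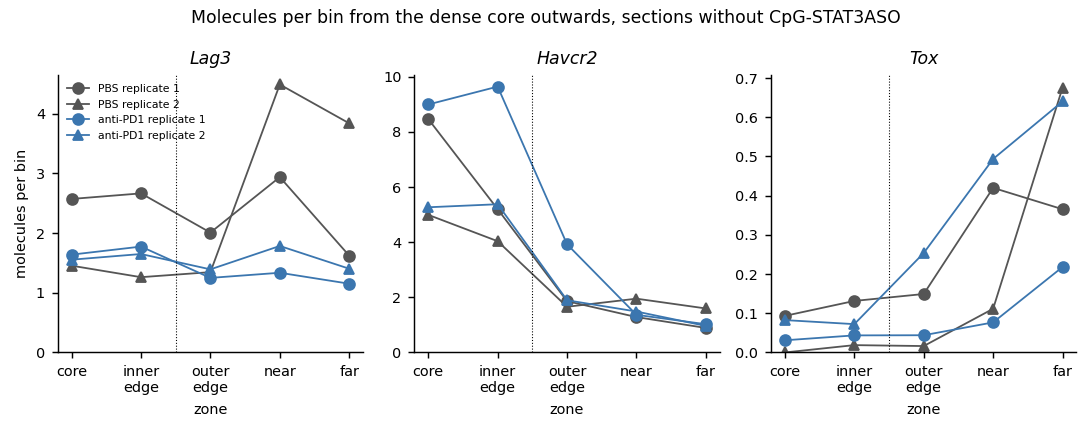
Molecules per 360-pixel bin by zone, from the core of the dense area to tissue 10 or more bins away, for each of the 4 sections without CpG-STAT3ASO; the dotted line marks the dense edge. On this scale Havcr2 drops at the edge in every section, Tox is highest in the farthest zone in 3 of 4, and Lag3 shows no common course.

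The profile of each gene over section and bin class was set beside that of the other genes. Over 24 combinations of section and class, log2 CPM of Lag3 was most like that of Tox (Pearson r = 0.92), Sirpa (0.90) and S1pr1 (0.86) among 93 genes. Tox was most like Sirpa (0.95), S1pr1 (0.92) and Lag3 (0.92), while Havcr2 was most like Tlr9 (0.95), Cd80 (0.92) and the macrophage gene Adgre1 (0.92). Sirpa encodes a receptor of myeloid cells and neurons, S1pr1 a lipid receptor of vessels, lymphocytes and astrocytes, Tlr9 the receptor for CpG DNA and Cd80 a costimulatory ligand of antigen-presenting cells. Lag3 and Havcr2 were less alike (r = 0.47, rank 19 from the side of Lag3). The strata share their section's depth and are not independent, so these are descriptions.

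T cell molecules, taken as Cd3d (a chain of the T cell receptor complex) and Cd8a (the CD8 coreceptor), served as anchors for the surroundings, with Sirpa and Adgre1 molecules as the comparison. A section held 1242 to 19033 T cell molecules, the largest number in combination replicate 2, with 170038 to 342924 molecules of Sirpa and 3446 to 27519 of Adgre1. Within 100 pixels of a T cell molecule lay on average 1.49 and 1.30 Lag3 molecules in the PBS sections, 1.17 and 1.47 after anti-PD1, 0.490 and 1.06 after CpG-STAT3ASO and 1.30 and 2.51 after the combination. Around a Sirpa molecule lay 0.394 to 1.14 and around an Adgre1 molecule 0.610 to 1.28. For Havcr2 the averages were 1.28 to 3.88 around T cell molecules, 0.667 to 1.71 around Sirpa and 1.54 to 3.08 around Adgre1, and for Tox 0.0241 to 0.130, 0.0751 to 0.280 and 0.0201 to 0.0613.

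Against Sirpa, Lag3 and Havcr2 were denser around T cell molecules and Tox was sparser. A Sirpa molecule lay within 100 pixels of most gene molecules (median of the sections 96.5%). This ratio thus compares T cell surroundings with most of the tissue, not with a separate brain or myeloid part. The log2 ratio was 0.91 for Lag3 (SE 0.174, limma adjusted p = 0.00158), above 0 in 8 of 8 sections, and 1.52 for Havcr2 (SE 0.165, adjusted p = 0.000103), above 0 in 8 of 8. For Tox it was -1.56 (SE 0.223, adjusted p = 0.000354), below 0 in 7 of 8 sections. The most frequent FP code was negative too by this ratio, at -1.16, and above 0 in 0 of 8 sections. All FP codes together were at -0.57, and those other than the most frequent at 0.77. The part of such background in the Tox ratio was not tested. Nearly every gene passed here, 90.7% of 97 (80.4% higher and 10.3% lower), and the median gene was at 1.55. Lag3 ranked 72 of 97 by this ratio, Havcr2 52 and Tox 95, and only in 1 section for Lag3 and 3 for Havcr2 did the gene exceed the median gene of that section. Pdcd1, the checkpoint receptor of activated T cells, was at 4.04 and ranked 7. Relative to the median gene of each section, Lag3 was lower by -0.61 (limma adjusted p = 0.0323) and Tox by -3.08 (7.52e-05), Havcr2 was level at 0.0054 (0.970), and Pdcd1 was at 2.53, with 67% of genes called.

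Against Adgre1, which marks macrophages, the ratios were smaller: 0.37 for Lag3 (SE 0.129, limma adjusted p = 0.0521), 0.13 for Havcr2 (adjusted p = 0.343) and 0.40 for Tox (SE 0.107, adjusted p = 0.0233), with 49.5% of genes called (42.3% higher and 7.22% lower) and the median gene at 0.26. The Tox call was kept in 3 of the 8 fits that leave out 1 section and was lost without PBS replicate 1, either anti-PD1 section, CpG-STAT3ASO replicate 2 or combination replicate 2, and Tox averaged at most 0.130 molecules around any anchor. Without combination replicate 1 Lag3 passed, at 0.49 (adjusted p = 0.0196). Pdcd1 was at 2.76.

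The difference from Pdcd1 was taken in each section and tested over the 8 sections. This test was not among the planned comparisons. The log2 ratio against Sirpa was higher for Pdcd1 than for Lag3 by 3.13 ± 0.774 (SD, n = 8), than for Havcr2 by 2.52 ± 0.590 and than for Tox by 5.61 ± 1.42. Against Adgre1 the differences were 2.39 ± 0.655, 2.63 ± 0.664 and 2.36 ± 0.668. Pdcd1 was higher in 8 of 8 sections in each of 12 such comparisons, which include those in low-proliferation bins. The exact two-sided sign-flip test gave p = 0.0078125 each, the smallest possible with 8 sections and the same after adjustment over the 12. The 12 overlap, since the anchors in low-proliferation bins are part of those in whole sections, so they are not 12 separate results. Pdcd1 ranked 7 of 97 by the whole-section ratios against Sirpa and against Adgre1, so it is a comparison gene from the top of the ranking. The ranks come from the same ratios, so these p-values add no support beyond them.

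The share of molecules with a T cell molecule nearby was highest for Havcr2 and lowest for Tox by its median, as for the ratio against Sirpa but not for those against Adgre1 or the ring. A Cd3d or Cd8a molecule lay within 100 pixels of 5.97 to 40.3% of Lag3 molecules (median of the sections 15.8%), of 6.78 to 37.6% of Havcr2 (median 21.0%) and of 5.12 to 31.3% of Tox (median 8.60%). For all gene molecules the median was 16.3%, for the FP codes 12.6% and for Pdcd1 51.0%. An Adgre1 molecule lay as near to a median of 63.1% of Lag3, 73.5% of Havcr2 and 28.3% of Tox, with 55.2% for all genes. For a Sirpa molecule these medians were 98.5, 98.7 and 99.7%, with 96.5% for all genes. Most Lag3, Havcr2 and Tox molecules thus had no T cell molecule of these 2 genes in reach, at a detection efficiency that is not known.

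Measured against a ring 400 to 600 pixels from the same anchors, all 3 genes were denser around T cell molecules, by 1.28 for Lag3 (SE 0.0949), 1.07 for Havcr2 (SE 0.101) and 0.78 for Tox (SE 0.0987) on the log2 scale. The limma adjusted p-values were 0.000151, 0.000276 and 0.000844. Of 98 genes 88.8% passed in this direction, with the median at 0.56 and Pdcd1 at 2.93. Lag3 ranked 20, Havcr2 28 and Tox 37.

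**Figure D3:**
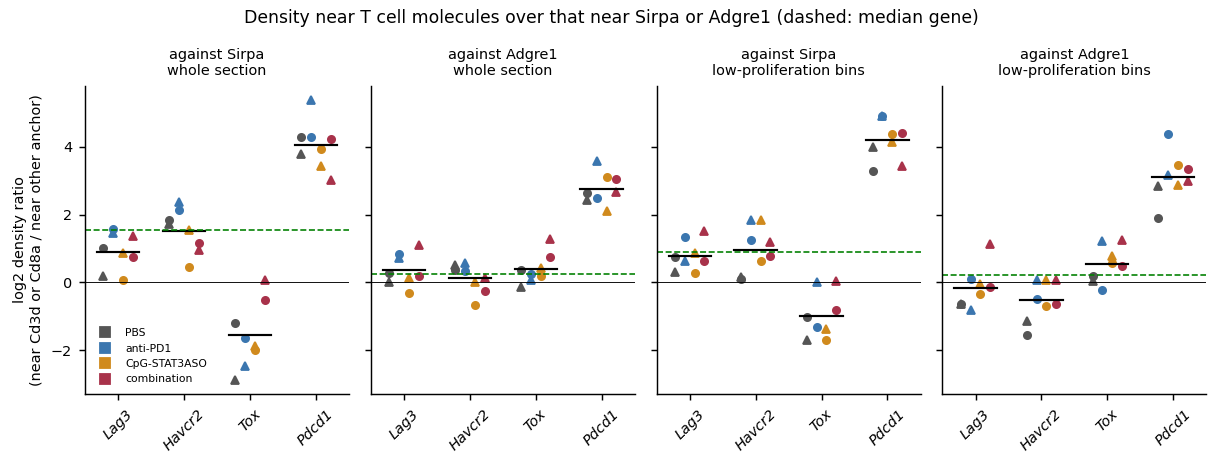
Log2 ratio of a gene's density within 100 pixels of Cd3d or Cd8a molecules to that around Sirpa or Adgre1 molecules, in whole sections and among anchors in low-proliferation bins; symbols are sections (circle replicate 1, triangle replicate 2), black bars the mean and green dashes the median gene. Lag3, Havcr2 and Tox lie near or below the median gene in most panels, while Pdcd1 lies above it in every section.

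The ratios were also taken by the place of the T cell molecules, and no difference between places was tested. Around those in low-proliferation bins the ratios against Sirpa were 0.79 for Lag3 (limma adjusted p = 0.00831), 0.97 for Havcr2 (0.00443) and -0.98 for Tox (0.00695), with 69.1% of genes called and the median gene at 0.88. The most frequent FP code was at -0.85 by that ratio and the other FP codes at 0.22. Against Adgre1 the members' ratios were -0.17 for Lag3, -0.53 for Havcr2 and 0.54 for Tox, none of which passed (limma adjusted p 0.506, 0.0555 and 0.0928), with 29.9% called. Relative to the median gene the Havcr2 value was -0.77 (adjusted p = 0.00873), so that Havcr2 lay below the median gene, itself at 0.23, with 38.1% of genes called on that measure.

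Around T cell molecules in dense bins, measured in the 4 sections that lacked CpG-STAT3ASO, Lag3 passed against both comparison genes. There 1.58, 0.985, 1.2 and 1.48 Lag3 molecules lay within 100 pixels of a T cell molecule, against 1.10, 0.497, 0.612 and 0.705 around Sirpa and 1.03, 0.418, 0.555 and 0.664 around Adgre1. The T cell value was the highest in each section. The log2 ratios of 0.89 against Sirpa (SE 0.119, limma adjusted p = 0.0137) and 1.03 against Adgre1 (SE 0.134, adjusted p = 0.0105) passed, as did 29.9 and 41.2% of genes. They also passed relative to the median gene, at 0.68 (adjusted p = 0.0354, 32% called) and 0.88 (adjusted p = 0.0212, 38.1% called). Havcr2 was at 0.49 and 0.40 and did not pass (0.0659 and 0.0563), nor did Tox at 0.21 and 1.21 (0.652 and 0.0606). Pdcd1 was at 2.39 and 2.48.

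CpG-STAT3ASO changed none of the members' ratios past the threshold. Its average effect on the ratio against Sirpa was -0.99 for Havcr2 (limma adjusted p = 0.0524), -0.28 for Lag3 and 0.96 for Tox (adjusted p = 0.123), where 29.9% of genes were called, all lower. For the ratio against Adgre1, 1.03% of genes were called.

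Read from the other side, the genes found around Lag3 and Havcr2 molecules differed between bin classes. In low-proliferation bins, the genes denser within 100 pixels of Lag3 than in the ring around it were led by Cd86 (1.48 on the log2 scale), Csf1r (1.41) and Tmem119 (1.40), and those around Havcr2 by the same genes at 1.73, 1.58 and 1.55. Cd86 encodes a costimulatory ligand of antigen-presenting cells, Csf1r the growth factor receptor of macrophages and microglia, and Tmem119 a marker of microglia. Lag3 and Havcr2 lay near each other there (Havcr2 around Lag3 1.31, Lag3 around Havcr2 1.38), while Cd8a was at 0.67 and 0.56 and the median gene at 0.33 and 0.49.

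Within dense bins, over the 4 sections that lacked CpG-STAT3ASO, the surroundings of Lag3 were led by Pdcd1 (1.70), Ifng (1.67) and Nkg7 (1.62), followed by Cd8a (1.61), and Tmem119 was at 0.38. Ifng encodes interferon gamma and Nkg7 a protein of cytotoxic granules. Those of Havcr2 were led by Ifng (1.82), the chemokine gene Ccl3 (1.40) and the checkpoint gene Ctla4 (1.39). Over whole sections the leaders were Pdcd1 (1.47), Ifng (1.46) and Nkg7 (1.38) around Lag3, and Ifng (1.42), Cd86 (1.26) and the interleukin-2 receptor gene Il2ra (1.24) around Havcr2.

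The change between classes was tested within those 4 sections. Around Lag3 30% of 100 genes passed, 18 denser and 12 sparser in dense bins. The sparser genes included Cd14 (log2 -1.21, SE 0.0941, limma adjusted p = 0.0144), Tmem119 (-1.19), Tlr9 (-1.05), Cd86 (-0.86), Adgre1 (-0.86) and Csf1r (-0.84, adjusted p = 0.0168), which myeloid cells use, and Havcr2 itself (-0.52, adjusted p = 0.0362). The denser genes included those of cytotoxic and activated lymphocytes: perforin, Prf1 (1.31, SE 0.127, adjusted p = 0.0144), Fas ligand, Fasl (1.05, adjusted p = 0.0201), Gzmb (0.72, adjusted p = 0.0202), Tbx21 (1.54, adjusted p = 0.0234), Ctla4 (1.0, adjusted p = 0.0299) and Ifng (2.07, adjusted p = 0.0486). Other genes of myeloid cells were also denser, the scavenger receptor gene Msr1 (0.51, adjusted p = 0.0299) and the neutrophil gene Ly6g (1.21, adjusted p = 0.0299), as was the chemokine receptor gene Ccr7 (0.62, adjusted p = 0.0316). Cd8a (1.11, limma adjusted p = 0.0787), Cd3d (0.59, adjusted p = 0.163) and Pdcd1 (0.46, adjusted p = 0.0512) did not pass.

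Around Havcr2 17% of genes passed, 8 denser and 9 sparser. Tmem119 (-1.65, limma adjusted p = 0.0225), Cd14 (-1.37), Cd86 (-1.05), Csf1r (-0.99) and Adgre1 (-0.81, adjusted p = 0.0288) were sparser in dense bins, and Prf1 (1.2, adjusted p = 0.0272), Cd8a (0.88, adjusted p = 0.0288) and the NK receptor gene Klrc1 (1.38, adjusted p = 0.0358) were denser. Gzmc was denser too (1.66, adjusted p = 0.0468). Other lymphocyte genes did not pass: Cd3d (0.39, limma adjusted p = 0.116), Nkg7 (0.43, 0.266), Tnfrsf9 (0.87, 0.173), Ctla4 (0.91, 0.103), Il2ra (0.98, 0.0541) and Pdcd1 (0.013, 0.967). Mki67 and Birc5, by which the bins were classed, were denser around both members and are no result. The proliferation gene Rrm2, not used for the classes, was denser around Lag3 (0.81, limma adjusted p = 0.0305) and Havcr2 (1.14, 0.0468). Cd4 was denser around both as well (1.42, limma adjusted p = 0.0327, and 1.05, 0.0378). Each ratio is taken against the ring around the same molecules, where the density of the gene differs between classes as well.

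**Figure D4:**
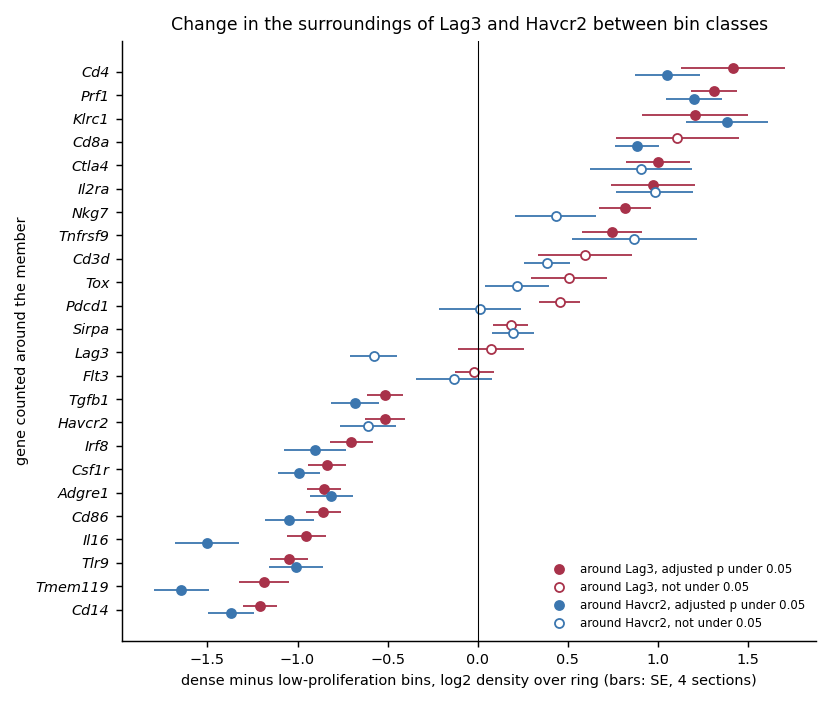
Change between low-proliferation and dense bins in how dense each gene is within 100 pixels of Lag3 (red) or Havcr2 (blue) molecules over the ring around them, with SE over the 4 sections without CpG-STAT3ASO; filled symbols passed at an adjusted p under 0.05. Of the genes shown, chosen after their values were known, Tmem119 and Cd14 lie to the left and passed for both members, and Prf1 and Klrc1 lie to the right and passed for both. The proliferation genes Mki67, Birc5 and Rrm2 are left out.

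The surroundings of Tox were of another kind. Over whole sections they were led by Flt3 (1.27), a growth factor receptor of dendritic cells and progenitors, Pdcd1 (1.01) and the interferon gene Ifna2 (0.99), and in low-proliferation bins by Flt3 (1.29) and Ifna2 (1.06). Lag3 (0.19) and Havcr2 (0.20) were below the median gene (0.32) around Tox. In dense bins Prf1 (1.45), Cd3d (1.31) and Nkg7 (1.18) led, from the 16 to 91 Tox molecules of a section. Between classes limma called 0% of the 100 genes around Tox, with 18 at an unadjusted p under 0.05, and no other tool was run on these ratios. Flt3 and Ifna2 were also the genes densest within 10 pixels of the most frequent FP code, as given below. The part of such background in the surroundings of Tox was not tested.

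Tox molecules also lay close to molecules of code FP 13. Within 10 pixels of FP 13 molecules there were 23 and 36 Tox molecules in the PBS sections, 5 and 24 after anti-PD1, 28 and 30 after CpG-STAT3ASO and 13 and 23 after the combination. The density in the ring predicted 2.95 and 3.87, 0.939 and 3.86, 4.65 and 4.90, and 2.96 and 3.87. The excess was 6.44-fold on average, a log2 value of 2.69 ± 0.312 (SD, n = 8), above 0 in each section, and it was smaller at wider radii, 2.27 at 25 pixels, 1.74 at 50 and 0.99 at 100. Among 94 genes only Ifna2 (2.93) and Flt3 (2.84) exceeded Tox at 10 pixels, and the median gene was at 0.26. Sirpa was at 2.23, while Lag3 (0.06) and Havcr2 (-0.30) showed no such excess. The pairs within 10 pixels numbered 5 to 36, beside the 222 to 947 Tox molecules of a section. Within 50 pixels there were 78 to 425 pairs, where the ring predicted 23.5 to 122, and 1 molecule can enter several pairs. The part of such co-location in the Tox values was not tested.

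**Figure D5:**
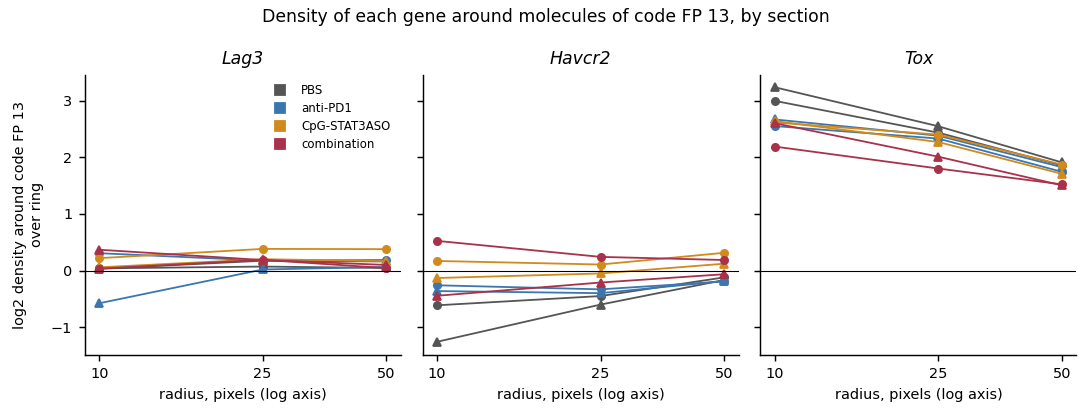
Log2 density of Lag3, Havcr2 and Tox within 10, 25 and 50 pixels of molecules of code FP 13, over the ring 400 to 600 pixels away (radius on a log axis); each line is a section. Tox lies between 2.19 and 3.24 at 10 pixels in the 8 sections, and Lag3 and Havcr2 scatter around 0.

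Other checkpoint and exhaustion genes gave a comparison. Of a list of 24, 9 are on the panel (Pdcd1, Ctla4, Cd274, Pdcd1lg2, Tnfrsf9, Icos, Cd28, Tbx21 and Ikzf2). For CpG-STAT3ASO in whole sections, 2 of 9 had a higher share (Ikzf2 1.11, limma adjusted p = 0.0154, and Tbx21 1.11, adjusted p = 0.0380), 1 a lower share (Tnfrsf9 -1.34, adjusted p = 0.0257) and 6 did not pass, among them Pdcd1 (0.84, adjusted p = 0.185), where 35% of all genes were higher and 8% lower. The median of the list was 0.80 against 0.63 for all genes. In low-proliferation bins 0 of 8 tested passed, with a median of 0.41 for the list and for all genes.

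In dense against low-proliferation bins 3 of 8 list genes had a higher share, the costimulatory receptor gene Tnfrsf9 (2.0) and the PD-1 ligand genes Pdcd1lg2 (1.23) and Cd274 (1.01), and Ikzf2 a lower one (-1.53), beside 28.6% of all genes higher and 27.6% lower. Lag3, Havcr2 and Tox were all lower there. Around T cell molecules against Sirpa 9 of 9 list genes were higher, beside 80.4% of all genes, with a median of 2.37 against 1.55 for all genes. Against Adgre1 7 of 9 passed, beside 49.5% of all genes, with a median of 1.39 against 0.26. The members' ratios against Sirpa were all under the list's median, and those against Adgre1 too.

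Of 8 ligands and partners of Lag3 and Havcr2, 1 is on the panel: Cd74, the invariant chain of MHC class II. Its share did not pass for CpG-STAT3ASO (-1.38, limma adjusted p = 0.101), and it was higher in dense than in low-proliferation bins by 2.20 (adjusted p = 0.00159).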

How the data were processed

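Each deposited table lists 1 called molecule per line with its x and y position in pixels, a z plane and a target name, other values being absent. Per the labels, the positions come from Resolve single-molecule FISH, and Seurat 4.2.0 appears, with no role, in the submitters' processing notes. For spot calling, pixel size and section thickness: not given in the sources used here.

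Molecules were counted per gene, section and bin class with Python 3.11.15. Shares are molecules per 1000000 gene molecules, with FP codes left out. Values of log2(share + 1), for genes averaging 10 or more molecules per section, were fitted over all genes by limma 3.58.1 in R 4.3.3 (lmFit, eBayes with trend), with 4 group means and contrasts, and Benjamini-Hochberg adjustment at 0.05. Dense and low-proliferation bins were compared with section as block. Surroundings are pairs of molecules within 100 pixels, with 0.5 added to pair counts. They were fitted by limma with eBayes without trend and without the filter on molecules, with the same adjustment. All tests were two-sided, and the fitting was tested on simulated data.

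Genes named in the text follow from the 3 members, the 2 lists of checkpoint genes and partners, the 3 most alike and the 3 densest neighbours; the others were chosen after their values were seen. For Tox in low-proliferation bins, the third neighbour is not reported here. The members and lists were chosen with earlier results of these data known. Alternatives changed the scaling, pseudocount, filter, bin size, class limits, radius, anchors, fit, replicate block and the sections used.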

Additional observations from a re-analysis of the deposited data

Results flagged for a closer look

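Among 36 sets of 4 values of the members, 2 held a section far from the others, and chance alone flags about 1 in 20. The Lag3 share in the sections with CpG-STAT3ASO was 3209.94 CPM in combination replicate 1, and its gap to the next section took 0.893 of the range, above the limit of 0.829. Without that section the effect of CpG-STAT3ASO on Lag3 stayed called, since the lowest value over all such fits was 1.42. Havcr2 in intermediate bins of the sections without the oligonucleotide was 5.08 molecules per bin in anti-PD1 replicate 1, where the gap took 0.909 of the range. The other 3 sections held 1.91 to 2.20.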

How the results depend on the processing

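Of 1131 alternative values over 66 results, those of the main comparisons kept their direction and side of the threshold in 382 cases, became weaker in 28, stronger in 11 and turned in 14; the others did so in 632, 30, 4 and 30. All are log2 values, and causes were not tested unless given. Per tissue bin, CpG-STAT3ASO gave 0.184 for Lag3, 0.154 for Havcr2 and 0.763 for Tox in whole sections, losing each call, and in low-proliferation bins 0.0245 for Lag3 and 0.144 for Tox (turned) and 0.957 for Havcr2 (gained). On that scale the anti-PD1 effect on Lag3 was 0.0761, CpG-STAT3ASO against PBS for Lag3 -0.534, the Havcr2 interaction 0.0649 and the combination against anti-PD1 for Tox in low-proliferation bins 0.0514, all turned, and dense against low-proliferation bins gave -0.192 for Lag3 (lost) and 2.12 for Havcr2 (turned). Between single groups in whole sections, the 5 calls were lost per tissue bin (adjusted p 0.183 to 0.837) and with median-of-ratios factors (Havcr2 0.929, 1.18 and 0.839, Tox 1.58, Lag3 1.55). Untrended eBayes lost Havcr2 for CpG-STAT3ASO against PBS (adjusted p = 0.0598) and the combination against anti-PD1 (0.0609) and gained Tox for the latter (0.0461), and voom gained Lag3 for the combination against PBS (0.0444). Median-of-ratios factors gave 0.914 for the Lag3 effect (lost), and in low-proliferation bins they turned Tox for CpG-STAT3ASO against PBS (-0.155), Havcr2 for anti-PD1 against PBS (0.314), Lag3 for the combination against anti-PD1 (-0.12) and the Havcr2 interaction (-0.102). Havcr2 for anti-PD1 against PBS there also turned with 180-pixel bins (0.0096) and with class limits of 20 and 200 (0.0122). Havcr2 in dense against low-proliferation bins lost its call with 720-pixel bins (-0.814) and limits of 5 and 50 (-0.825).

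For T cell surroundings against Sirpa, a radius of 200 pixels took the call from Lag3 (0.345, and 0.379 in low-proliferation bins), as 50 pixels did from Tox in low-proliferation bins (-0.603). Relative to the median gene, a measure chosen after seeing the data, Lag3 turned (-0.608, and -0.0401 in low-proliferation bins) and Havcr2 lost its call (0.00536 and 0.136). Over the ring, calls were lost for Tox (-0.0411, and -0.173 in low-proliferation bins) and Havcr2 there (0.45). Dense-bin anchors, also added later and with 4 sections, gave 0.487 for Havcr2 (lost) and 0.214 for Tox (turned). Against Adgre1, Lag3 gained a call at 50 pixels (0.821), over the ring (0.3999) and at dense-bin anchors (1.03), and turned in low-proliferation bins at 50 pixels (0.0266). Havcr2 turned relative to the median gene (-0.155) and in low-proliferation bins gained a call on that measure (-0.774) and at 50 pixels (-0.689). Tox turned at 200 pixels (-0.021), lost its call with Cd3d alone (0.423), relative to the median gene (0.116) and at dense-bin anchors (1.21), and gained one in low-proliferation bins at 50 pixels (1.84) and over the ring (0.609).

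Leaving out 1 section in turn gave -0.652 to 0.329 for CpG-STAT3ASO on Tox and -0.056 to 0.239 for anti-PD1 on Havcr2 in low-proliferation bins. For anti-PD1 against PBS it gave -0.0384 to 0.682 (Havcr2) and -1.43 to 0.173 (Tox) in whole sections, and -0.173 to 0.117 and -1.44 to 0.521 in low-proliferation bins. Interactions ran from -0.432 to 0.288 (Havcr2) and -0.966 to 0.634 (Tox) in whole sections, and from -0.0568 to 0.533 and -1.52 to 0.443 in low-proliferation bins. There the combination ran from -0.0844 to 0.506 against CpG-STAT3ASO (Havcr2) and from -1.41 to 0.55 against anti-PD1 (Tox). Dense against low-proliferation bins ran from -1.07 to -0.602 for Havcr2, with the call lost each time. T cell against Adgre1 surroundings ran from 0.259 to 0.491 for Lag3, from 0.336 to 0.466 for Tox and, in low-proliferation bins, from 0.36 to 0.72 for Tox. Where 1 section was left in a group, it was taken to vary like the others. Neighbours of the members were not refitted this way.

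Sections with the same replicate number deviated together among PBS, CpG-STAT3ASO and the combination (r 0.31, 0.59 and 0.25 over genes) but not with anti-PD1 (-0.53 to -0.31), so pairing by number was not adopted. With the replicate number as a block, the CpG-STAT3ASO effects stayed at 1.60, 1.57 and 2.17 with their calls, the call of Tox for CpG-STAT3ASO against PBS was lost (adjusted p = 0.0686), and Havcr2 around T cell against Adgre1 molecules in low-proliferation bins passed at -0.53 (limma adjusted p = 0.0184). Depth limits Tox most, with 222 to 947 molecules per section and 16 to 91 in dense bins.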
